A study of Mus musculus with 3 samples.

Results

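High mobility group proteins are small, abundant proteins that bind DNA or nucleosomes and change how chromatin is folded. Their genes were followed here in single cells from the blood of young, aged and treated aged mice. The 6 genes are Hmgb1, Hmgb2, Hmgb3, Hmgn1, Hmgn2 and Hmga1, found by their symbols among the 32285 genes of the deposited matrices. They were chosen as a family of genes, and none of them was used to sort the cells into types.

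Peripheral blood mononuclear cells (PBMCs) were profiled cell by cell with droplet-based RNA sequencing in 3 libraries. The young library came from mice 8 weeks old and the aged library from mice 16 months old, both labelled as without treatment. The aged-GA library came from mice 16 months old that received glycyrrhizic acid (GA), a saponin of licorice root, for 1 month. By the study's methods the mice were female C57BL/6, GA was injected into the tail vein, and control mice received phosphate-buffered saline by the same route. Each group is 1 library. By the study's description each group had several mice, but the labels do not tell the mice of a library apart. No test between groups was therefore possible. Values are given with intervals for counting error in the summed UMIs. The intervals cover no differences between the cells of a class, between mice or between libraries.

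The proteins of the HMGB family hold HMG boxes, which bend DNA. HMGB1 is also known as a danger signal once it leaves the cell, where it binds Toll-like receptors and RAGE, and GA is a known ligand of the HMGB1 protein. HMGB2 is best known from dividing cells and from thymocytes, and HMGB3 from blood progenitors. HMGN1 and HMGN2 bind the nucleosome core and counteract linker histones, and HMGA1 binds AT-rich DNA through AT-hooks. The measurements here are of messenger RNA, and they hold no information on released protein.

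Because HMGB2 is known from dividing cells, the 250 bases before the annotated start of the genes were searched for CCAAT, the letters bound by NF-Y, and for TTTGAA, a form of the CHR element known from promoters of cell cycle genes. Sequences are from RefSeq (GRCm38.p6), written 5′ to 3′ on the strand of the gene. Capitals mark a match to CCAAT or TTTGAA on either strand (ATTGG and TTCAAA on the other strand), and no matches to these letters overlapped. All 6 genes had an entry, with 8 windows in all. The 4 windows printed are those of the 3 HMGB genes and of Hmgn2, which like Hmgb2 stood high in neutrophils and in young regulatory T cells.

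Hmgb2: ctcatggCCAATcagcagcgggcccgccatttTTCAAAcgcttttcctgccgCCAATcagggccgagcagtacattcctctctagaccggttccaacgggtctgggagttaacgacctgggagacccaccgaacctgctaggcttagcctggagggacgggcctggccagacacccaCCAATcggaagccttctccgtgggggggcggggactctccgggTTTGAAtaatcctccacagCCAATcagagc

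Hmgb3: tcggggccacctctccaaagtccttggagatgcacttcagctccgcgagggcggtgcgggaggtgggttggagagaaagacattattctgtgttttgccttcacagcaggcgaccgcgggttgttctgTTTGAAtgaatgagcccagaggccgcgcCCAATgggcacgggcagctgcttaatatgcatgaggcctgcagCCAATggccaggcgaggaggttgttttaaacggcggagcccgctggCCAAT

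Hmgb1: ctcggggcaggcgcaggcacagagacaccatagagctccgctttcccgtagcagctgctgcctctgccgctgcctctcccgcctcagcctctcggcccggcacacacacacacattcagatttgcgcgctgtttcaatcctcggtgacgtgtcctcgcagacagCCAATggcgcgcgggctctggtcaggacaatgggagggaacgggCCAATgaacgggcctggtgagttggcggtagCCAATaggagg

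Hmgn2: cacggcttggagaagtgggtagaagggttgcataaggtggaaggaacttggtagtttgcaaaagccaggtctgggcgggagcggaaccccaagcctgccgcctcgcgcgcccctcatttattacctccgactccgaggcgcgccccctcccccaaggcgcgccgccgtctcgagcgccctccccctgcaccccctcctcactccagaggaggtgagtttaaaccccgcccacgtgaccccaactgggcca

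The window of Hmgb2 (chr8:57511593-57511842, plus strand) held 4 CCAAT matches and 2 TTTGAA matches, the nearest TTTGAA match lying 30 to 25 bases before the start. The window of Hmgb3 (chrX:71555667-71555916, plus strand) held 3 CCAAT matches and 1 TTTGAA match. The window of Hmgb1 (chr5:149053058-149053307, minus strand) held 3 CCAAT matches and no TTTGAA match, and a second annotated start of Hmgb1 had neither. The window of Hmgn2 (chr4:133967992-133968241, minus strand) held neither. Hmgn1 (chr16:96127726-96127975, minus strand) had 2 CCAAT matches and no TTTGAA match, and both windows of Hmga1 on chromosome 17 had none of either. For comparison, 33.8% of 32851 windows of this length held CCAAT at least once and 2.79% held it at least 3 times. TTTGAA was in 16.0% of windows. CCAAT together with TTTGAA was in 5.55% of windows, and at least 2 CCAAT matches together with TTTGAA in 1.53%. At least 3 CCAAT matches together with TTTGAA, as in Hmgb2 and Hmgb3, were in 0.381% of windows. That count of 3 is the number found in the Hmgb3 window. No window of the 6 genes held TTCGAA, GGCGGGAA or TATAAA on either strand. A match of letters is not a bound site, and the absence of these letters says nothing about the factor. The genes themselves lie at chr8:57511843-57515999 (Hmgb2), chrX:71555917-71560673 (Hmgb3), chr5:149046702-149053057 (Hmgb1), chr4:133964739-133967991 (Hmgn2), chr16:96121588-96127725 (Hmgn1) and chr17:27556574-27563672 (Hmga1).

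The libraries held 10842 (young), 16038 (aged) and 17332 (aged-GA) barcodes, of which 8851, 10238 and 12648 passed the filters on genes and on mitochondrial RNA. The kept cells had between 3810.5 and 4752 unique molecular identifiers (UMIs, counts of single messenger RNA molecules) per cell at the median. Between 50 and 62 barcodes were shared by any pair of libraries. Cells were sorted into 17 classes by marker genes, so that a class is named after its markers and its cells are cells like that type. In young mice only 13 neutrophils, 2 classical monocytes, 2 plasma cells and no basophils were kept, and young values of these classes are not given. Cells with markers of more than 1 lineage were left out of the classes and made up 5.24% of kept cells in young, 12% in aged mice and 12.5% in aged-GA mice. Levels are CPM, the UMIs of a gene summed over the cells of a class and given per 1000000 UMIs of the same cells. Barcodes of red blood cells that failed the filter on genes held 2.37, 7.97 and 12.6 CPM of Hmgb2 in young, aged and aged-GA mice, below the level of every class on the same scale. With haemoglobin left out of their total these barcodes held 47.6, 193 and 266 CPM, beside 759, 403 and 388 CPM of all UMIs in naive CD8 T cells. The part of such background in the levels of low classes was not tested.

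By summed level, Hmgb2 stood highest in regulatory T cells, memory CD4 T cells, NK cells and neutrophils and lowest in erythroid cells. Regulatory T cells held 2790 CPM in young, 1130 in aged mice and 1851 in aged-GA mice, from 22, 31 and 21 cells. Of these few cells, 4, 2 and 1 held at least 3 genes of the G2/M phase of the cell cycle. The level of the class without them is not given. Memory CD4 T cells held 1669, 1270 and 1221 CPM. NK cells held 1507, 1266 and 1153 CPM. In mature neutrophils the level was 1479 CPM (95% interval 1416 to 1544) in aged mice and 1419 (1340 to 1502) in aged-GA mice. Naive T cells and B cells stood low in all 3 libraries. Follicular B cells held 881 CPM (852 to 910) in young, 402 (388 to 417) in aged mice and 464 (453 to 476) in aged-GA mice. Naive CD8 T cells held 759, 403 and 388 CPM, and naive CD4 T cells 868, 408 and 547. Memory CD8 T cells lay between these groups, with 1009, 966 and 687 CPM. Erythroid cells, in which haemoglobin made up at least 50% of UMIs, were lowest, with 75.3, 160 and 95.7 CPM.

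In the aged library mature neutrophils stood apart from the next class by their intervals, while memory CD4 T cells, immature neutrophils, NK cells and regulatory T cells could not be ordered among themselves. The 4 lowest classes above erythroid cells, naive CD4 T cells, naive CD8 T cells, follicular B cells and Fcrl5+ B cells, lay within 390 to 408 CPM in aged mice and did not differ beyond counting error. In young mice the intervals of follicular B cells, naive CD4 T cells, Fcrl5+ B cells, nonclassical monocytes and naive CD8 T cells overlapped from each to the next, between 881 and 759 CPM.

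**Figure D1:**
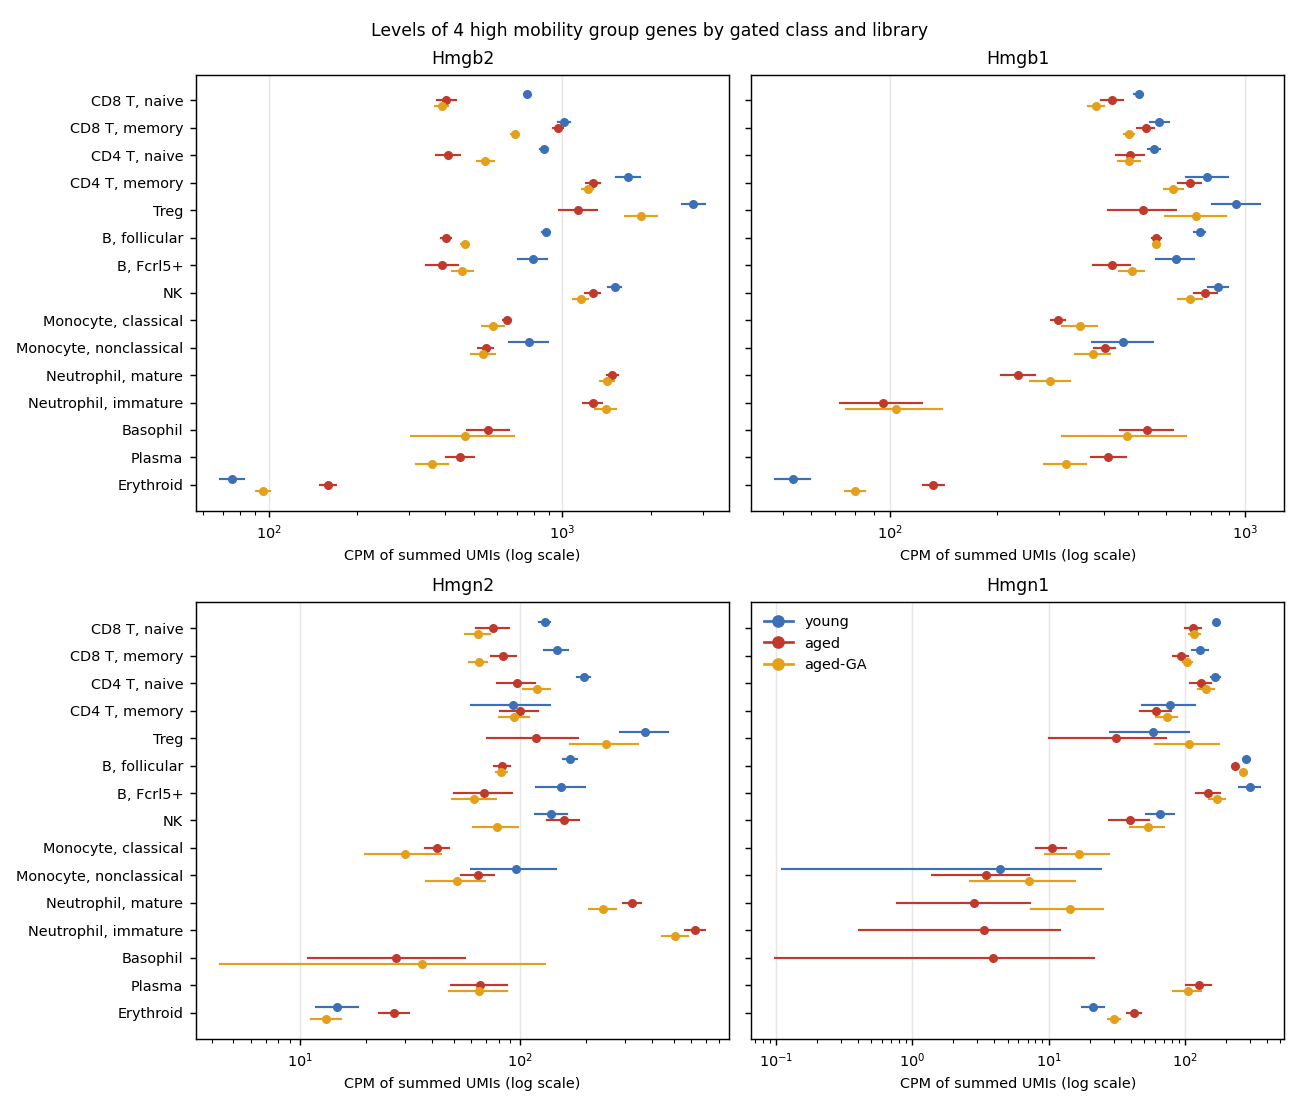
Level of Hmgb2, Hmgb1, Hmgn2 and Hmgn1 in each marker-gated class (rows) in the young, aged and aged-GA libraries (colours), as CPM of summed UMIs on a log axis. Points are levels and bars are 95% Poisson intervals for counting error; classes with under 20 cells and levels of 0 (Hmgn1 in immature neutrophils and basophils of aged-GA mice) are not drawn. Neutrophils stand near the top for Hmgb2 (1267 to 1479 CPM) and Hmgn2 (239 to 626 CPM) and near the bottom for Hmgb1 and Hmgn1.

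Hmgb1 varied less between lymphocytes than Hmgb2. Regulatory T cells held 944, 515 and 728 CPM in young, aged and aged-GA mice, from 22, 31 and 21 cells. NK cells held 838, 772 and 700 CPM, memory CD4 T cells 782, 699 and 627, and follicular B cells 744, 562 and 562. Naive CD8 T cells held 502 CPM in young, 423 in aged mice and 380 in aged-GA mice. Classical monocytes and neutrophils were lower, the former with 297 CPM in aged mice and 343 in aged-GA mice. Mature neutrophils held 229 and 282 CPM, and immature neutrophils, marked by the granule genes Ngp, Camp and Ltf, held 95.4 (72.2 to 124) and 104 (75.4 to 140).

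The nucleosome binding genes Hmgn1 and Hmgn2 were both found in B cells and T cells, while neutrophils held Hmgn2 and little Hmgn1. Hmgn1 was highest in B cells, with 282, 233 and 269 CPM in follicular B cells of young, aged and aged-GA mice. Naive CD8 T cells held 171, 115 and 118 CPM of Hmgn1, and NK cells 66.1, 39.3 and 53.7. Monocytes, neutrophils and basophils held between 0 and 16.8 CPM, and the 54 immature neutrophils of aged-GA mice had 0 UMIs of Hmgn1. Hmgn2 was highest in immature neutrophils, at 626 CPM (564 to 693) in aged mice and 509 (443 to 583) in aged-GA mice. Mature neutrophils held 323 and 239 CPM of Hmgn2. Of the lymphocytes, regulatory T cells of young mice had 369 CPM of Hmgn2 (284 to 472, from 63 UMIs), and follicular B cells had 168, 83.2 and 82.3. Of these 22 young regulatory T cells, 4 held at least 3 genes of the G2/M phase of the cell cycle. Classical monocytes were low, with 42.2 and 30.2 CPM.

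Hmgb3 and Hmga1 were rare messages. Over all kept cells Hmgb3 held 12.7, 8.59 and 10.3 CPM, and Hmga1 10.2, 9.97 and 7.25, against 539, 436 and 441 for Hmgb1. Hmgb3 stood at 17.2, 12.1 and 12.1 CPM in follicular B cells and at 9.70, 7.24 and 9.47 in naive CD8 T cells. In NK cells of aged-GA mice 0 UMIs of Hmgb3 were found, which allows up to 3.22 CPM. Hmga1 was highest in nonclassical monocytes, the patrolling monocytes marked by Ace, Treml4 and Cd300e, with 69.8 CPM (39.9 to 113) in young, 20.3 (14.6 to 27.6) in aged mice and 18.0 (10.1 to 29.7) in aged-GA mice. These values rest on 16, 41 and 15 UMIs, and the comparison fell short of the 100 UMIs asked of a ratio. In each library the interval of nonclassical monocytes overlapped that of the next class. Plasma cells held 18.8 CPM of Hmga1 (10.3 to 31.5) in aged mice. Classical monocytes held 15.4 (12.4 to 18.9) in aged and 12.3 (6.14 to 22.0) in aged-GA mice. Hmga1b, a near-identical gene with a row of its own, had at most 8.72 CPM in any class of at least 20 cells and 0 UMIs in most of them, so that the level of Hmga1 is uncertain by what reads the 2 rows share.

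The first comparison between libraries asked how the genes differed between aged and young mice within each class. Ratios were taken only where each library had at least 20 cells of the class and the gene at least 100 UMIs over both, and a value was counted where it passed 1.5-fold. Hmgb2 and Hmgn2 were lower in aged naive T cells and B cells, by about a log2 unit, while Hmgb2 differed by less than 1.5-fold in memory CD8 T cells, memory CD4 T cells and NK cells. Over the 9 classes other than erythroid cells, 14 of 35 ratios of the 6 genes were past 1.5-fold lower and 0 higher. Of all genes in the same classes, 4.84% were past 1.5-fold lower and 16.5% higher. The ratio was below 0 in 33 of 35 cases, with a median of -0.51. With erythroid cells, 14 of 39 ratios were lower, against 4.79% of all genes, and 4 were higher, against 22.8%. The 4 higher ratios were all of erythroid cells. The median ratio of all genes was 0.25 in follicular B cells, 0.17 in naive CD8 T cells and 0.13 in naive CD4 T cells.

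By gene, Hmgb2 was past 1.5-fold lower in 5 of 9 classes. Of all genes, this was so of 3.02% in follicular B cells, 8.9% in Fcrl5+ B cells, 4.89% in naive CD4 T cells, 4.5% in naive CD8 T cells and 16.8% in regulatory T cells. The log2 ratio was -1.13 (-1.20 to -1.06) in follicular B cells, -1.02 (-1.27 to -0.78) in Fcrl5+ B cells, -1.09 (-1.24 to -0.94) in naive CD4 T cells and -0.91 (-1.03 to -0.80) in naive CD8 T cells. It was -1.30 (-1.56 to -1.05) in regulatory T cells. In that class 4 of 22 young cells and 2 of 31 aged cells were cycling by the gate of at least 3 G2/M genes. After thinning each cell to 1000 UMIs, 54.5% of young and 58.1% of aged regulatory T cells held Hmgb2, so that the share of cells did not follow the summed level there. In memory CD8 T cells Hmgb2 was at -0.06 (-0.15 to 0.02), in memory CD4 T cells at -0.39 (-0.55 to -0.24), in NK cells at -0.25 (-0.36 to -0.14) and in nonclassical monocytes at -0.48 (-0.71 to -0.25), none of which passed 1.5-fold. In cells without any gene of the cycle lists, memory CD4 T cells were at -1.23 and NK cells at -0.90, so that these values depend on which cells are counted. Of memory CD4 T cells, 0 of 50 in young and 9 of 232 in aged mice were cycling, so this choice also left out young cells not gated as cycling.

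Hmgn2 was past 1.5-fold lower in 5 of 8 classes, at -1.02 (-1.18 to -0.86) in follicular B cells, -1.16 (-1.75 to -0.59) in Fcrl5+ B cells, -1.01 (-1.32 to -0.71) in naive CD4 T cells, -0.78 (-1.04 to -0.52) in naive CD8 T cells and -0.80 (-1.07 to -0.54) in memory CD8 T cells. In memory CD8 T cells 3.26% of all genes were past 1.5-fold lower, and this value was not past 1.5-fold with 3 markers asked of a lineage (-0.53). In NK cells Hmgn2 was at 0.19 (-0.15 to 0.53) and in memory CD4 T cells at 0.10 (-0.54 to 0.80). Hmgb1 was past 1.5-fold lower in 2 of 9 classes, regulatory T cells (-0.87) and Fcrl5+ B cells (-0.60), and its median over the 9 classes was -0.23. In follicular B cells Hmgb1 was at -0.40 (-0.47 to -0.34). Hmgn1 passed 1.5-fold in 2 of 6 classes, Fcrl5+ B cells (-1.01, -1.41 to -0.61) and NK cells (-0.75, -1.37 to -0.15, where 6.28% of all genes were past 1.5-fold lower). Hmgb3 had 2 ratios, -0.51 in follicular B cells and -0.42 in naive CD8 T cells, and Hmga1 had 1, -0.51 in follicular B cells, and none of these passed.

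**Figure D2:**
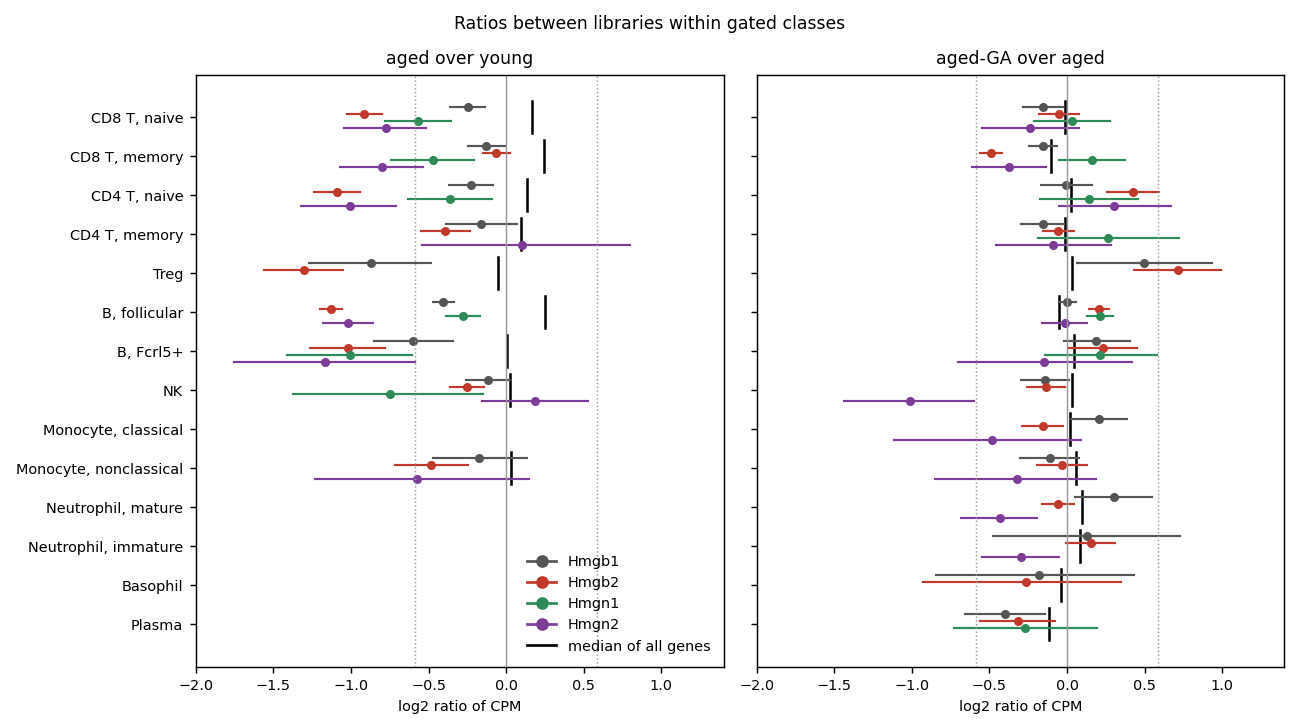
Log2 ratio of CPM between libraries within each class, aged over young on the left and aged-GA over aged on the right, for Hmgb1, Hmgb2, Hmgn1 and Hmgn2, with erythroid cells left out. Bars are exact 95% intervals for counting error, dotted lines mark 1.5-fold and black marks the median of all genes in the class. On the left Hmgb2 and Hmgn2 lie near -1 in naive T cells and B cells, and on the right most values lie between the dotted lines.

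Other measures of the libraries moved with this comparison, and their part in it was not tested. In follicular B cells the median mitochondrial share was 5.56% in young, 3.51% in aged mice and 4.79% in aged-GA mice. The haemoglobin share of UMIs there was 0.212%, 3.05% and 2.43%. A list of stress genes, chosen after the data were seen, summed to 7644, 4123 and 5111 CPM. In cells with a mitochondrial share of 2 to 4% in every library, a range also chosen after the data were seen, 7 of 23 ratios were past 1.5-fold lower, against 6.74% of all genes in the same cells, and 0 higher, against 20.4%. With haemoglobin, immunoglobulin, mitochondrial and ribosomal protein genes left out of the total, Hmgb2 stayed past 1.5-fold lower in the same 5 classes.

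The second comparison, aged-GA over aged mice, asked what differed with GA at the same age. In most classes the 6 genes differed by less than 1.5-fold. Outside erythroid cells 1 of 50 ratios was past 1.5-fold higher, against 2.94% of all genes, and 1 lower, against 3.18%. With erythroid cells, 1 of 54 was higher, against 2.75%, and 4 were lower, against 9.35%. A share of this size is near that of all genes. The higher value was Hmgb2 in regulatory T cells (0.71, 0.43 to 0.99, from 31 aged and 21 aged-GA cells), in a class where 7.96% of all genes were past 1.5-fold higher. The lower value was Hmgn2 in NK cells (-1.01, -1.44 to -0.60), where 1.94% of all genes were lower. Both were within 1.5-fold with 3 markers asked of a lineage, and both did so with the mean of the CPM of single cells. Of the 252 aged NK cells, 7 were cycling, against 1 of 253 in aged-GA mice.

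By sign, 31 of the 50 ratios outside erythroid cells were below 0 and 19 above, with a median of -0.06. Hmgn2 was below 0 in 10 of 11 classes (median -0.30), and Hmgn1 was above 0 in 6 of 7 (median 0.16). Hmgb1 and Hmgb2 were below 0 in 8 and 9 of 14 classes. Some smaller differences had intervals that did not reach 0. Hmgb2 was at -0.49 (-0.56 to -0.42) in memory CD8 T cells, at 0.42 (0.25 to 0.60) in naive CD4 T cells and at 0.21 (0.14 to 0.27) in follicular B cells. Of the memory CD8 T cells, 12 of 472 in aged and 13 of 888 in aged-GA mice were cycling. Their Hmgb2 levels in cells with no cycle gene, given below, lay closer together. Hmgn1 was at 0.21 (0.13 to 0.29) in follicular B cells. Hmgb1 in the same cells was at 0.00 (-0.05 to 0.06), the narrowest interval of this comparison. In mature neutrophils Hmgn2 was at -0.43 (-0.68 to -0.19), Hmgb1 at 0.30 (0.05 to 0.55) and Hmgb2 at -0.06 (-0.16 to 0.04). The intervals hold counting error only. With 1 library per group a difference of any size between groups, here or in the other comparisons, cannot be told apart from one between libraries.

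Aged-GA mice were also set beside young mice, a comparison that shares its libraries with the others. Outside erythroid cells 13 of 36 ratios were past 1.5-fold lower, against 3.15% of all genes, and 0 higher, against 13.8%. With erythroid cells 13 of 40 were lower, against 3.24%, and 0 higher, against 18.4%. Hmgb2 was at -0.92 in follicular B cells, -0.97 in naive CD8 T cells and -0.67 in naive CD4 T cells, and Hmgn2 at -1.03, -1.01 and -0.71. Hmgn2 stood at -1.18 (-1.40 to -0.95) in memory CD8 T cells and at -0.83 (-1.25 to -0.41) in NK cells. The value in NK cells was within 1.5-fold with 3 markers asked of a lineage (-0.22). Hmgb2 in regulatory T cells was at -0.59 and fell within 1.5-fold under 3 of 8 alternatives. Hmga1 was past 1.5-fold lower in follicular B cells, at -1.09 (-1.52 to -0.65), from 75 young and 117 aged-GA UMIs.

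Within each library, memory T cells were compared with naive T cells. Hmgb2 was higher in memory cells, while Hmgn1 was lower, past 1.5-fold in CD4 T cells only. Hmgb2 was higher in memory than in naive CD8 T cells, by 0.41 (0.33 to 0.49) in young, 1.26 (1.14 to 1.38) in aged mice and 0.82 (0.74 to 0.91) in aged-GA mice on the log2 scale. The aged and aged-GA ratios passed 1.5-fold, which 15.6% and 10.7% of all genes did in this direction, and 8.17% in young mice. Memory over naive CD4 T cells gave 0.94, 1.64 and 1.16 for Hmgb2, where 27.8%, 24.1% and 20.4% of all genes were past 1.5-fold higher. Hmgn1 was lower in memory than in naive CD4 T cells, at -1.10, -1.09 and -0.97, where 9%, 4.74% and 4.08% of all genes were past 1.5-fold lower. The young memory CD4 T cells had 21 UMIs of Hmgn1. Memory against naive CD8 T cells held 130 against 171 CPM of Hmgn1 in young mice. The levels were 93.6 against 115 CPM in aged and 104 against 118 in aged-GA mice, with overlapping intervals. Regulatory T cells over naive CD4 T cells gave 1.68, 1.47 and 1.76 for Hmgb2, in a contrast where 26.3%, 24.6% and 28.9% of all genes were past 1.5-fold higher. Of the regulatory T cells 4 of 22, 2 of 31 and 1 of 21 were cycling, and 0, 0 and 2 of the naive CD4 T cells. No value of this contrast without them is given. NK cells over naive CD8 T cells gave 0.99, 1.65 and 1.57 for Hmgb2 and -1.37, -1.55 and -1.13 for Hmgn1, a contrast in which 43.3%, 37.6% and 39.8% of all genes were past 1.5-fold higher and 11.7%, 10.8% and 10.5% lower.

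Since memory classes hold cycling cells and Hmgb2 is known from dividing cells, the levels were taken again in cells in which none of the 14 G2/M genes and 14 S-phase genes of the cycle lists was found, a choice made after the data were seen. Memory CD8 T cells then held 858 CPM of Hmgb2 in young, 675 in aged mice and 577 in aged-GA mice. Memory over naive CD8 T cells was then 0.19 (0.06 to 0.31), 0.92 (0.73 to 1.11) and 0.57 (0.43 to 0.70). NK cells without a cycle gene held 1501 CPM in young, 807 in aged mice and 1076 in aged-GA mice. The ratio of aged to young NK cells was thus -0.90 in these cells and -0.25 in all NK cells, and aged-GA over aged was 0.41 in these cells and -0.14 in all. Of the 1161 Hmgb2 UMIs of aged NK cells, 455 came from the 7 cycling cells. In memory CD4 T cells without a cycle gene the level was 2062 CPM in young (23 cells), 878 in aged mice and 1060 in aged-GA mice. In follicular B cells it was 888, 401 and 456 CPM, close to the levels of all follicular B cells.

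**Figure D3:**
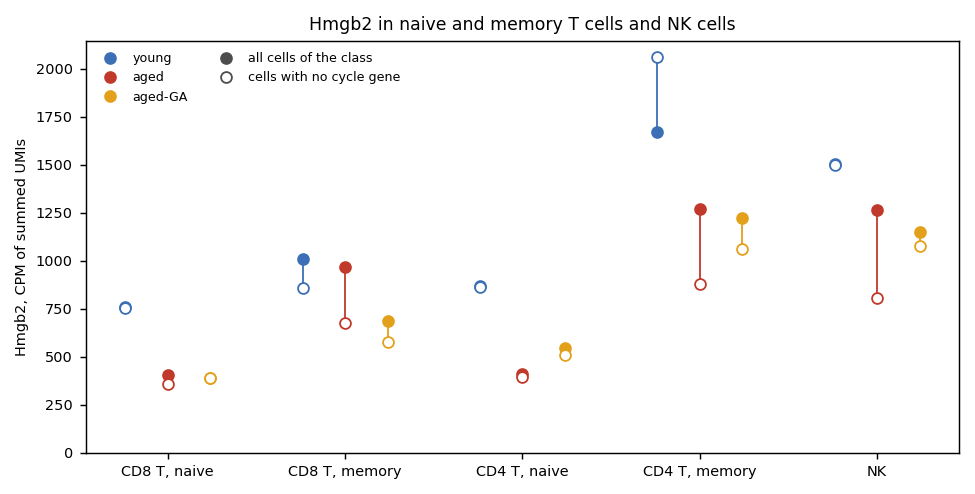
Level of Hmgb2 (CPM of summed UMIs) in naive and memory T cells and in NK cells of the young, aged and aged-GA libraries (colours), over all cells of the class (filled) and over cells with no G2/M or S-phase gene found (open). Naive cells move little, while aged NK cells move from 1266 to 807 CPM and aged memory CD4 T cells from 1270 to 878.

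Cycling cells, gated by at least 3 of 14 G2/M genes such as Mki67, Top2a and Cdk1, were rare. They numbered 47 in young (0.531% of kept cells, exact 95% interval 0.390 to 0.706), 107 in aged (1.05%, 0.857 to 1.26) and 108 in aged-GA mice (0.854%, 0.701 to 1.03). Of these, 22, 33 and 30 were T cells and 16, 9 and 23 were erythroid cells. Another 8, 33 and 35 had markers of more than 1 lineage. They are counted in these shares although they were left out of the classes. Cycling T cells had higher levels of Hmgb2, Hmgn2 and Hmgb1 than T cells with no cycle gene in all 3 libraries. Hmgb2 stood at 2842 against 830 CPM in young, 5120 against 561 in aged mice and 3408 against 581 in aged-GA mice. On the log2 scale this was 1.78 (1.67 to 1.88), 3.19 (3.11 to 3.28) and 2.55 (2.46 to 2.64). Hmgn2 was at 1.70 (1.44 to 1.94), 3.03 (2.78 to 3.27) and 2.81 (2.58 to 3.04), and Hmgb1 at 0.77 (0.58 to 0.95), 1.63 (1.5 to 1.76) and 1.28 (1.14 to 1.42).

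The other 3 genes did not share this pattern in each library. Hmgb3 was at 1.5 (0.42 to 2.41) in young and 1.23 (0.24 to 2.10) in aged-GA mice from 10 and 12 UMIs in cycling cells, and had too few UMIs for a ratio in aged mice. Hmgn1 was past 1.5-fold lower in young cycling T cells (-0.64, -1.22 to -0.11), at 0.38 (-0.06 to 0.79) in aged mice and higher in aged-GA mice (0.87, 0.52 to 1.19). Hmga1 had a ratio in young mice only, at -0.15 (-3.21 to 1.73). In all, 13 of 18 ratios were past 1.5-fold higher, against 24.6% of all genes, and 1 was lower, against 18.8%. The 4 contrasts behind this count were the 3 of T cells and that of erythroid cells in aged-GA mice, in which Hmgb2 was higher (0.85, 0.35 to 1.32), as were 24.7% of all genes. In T cells alone, 30.3%, 22% and 20.5% of all genes were past 1.5-fold higher in young, aged and aged-GA mice, and 17%, 21.4% and 19.8% were lower. Cycling T cells were deeper, with 9658.5, 10374 and 11800 UMIs at the median against 4810, 4269.5 and 5328.5. They also came from other subsets, since 6, 12 and 13 of them were memory CD8 T cells and 2, 1 and 0 were naive CD8 T cells.

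Hmgb2 in T cells was higher with 3 or more G2/M genes found than with fewer. With none found the level was 841, 583 and 587 CPM in young, aged and aged-GA mice, with 1 found 935, 767 and 722, and with 2 found 912, 975 and 609. From 1 to 2 genes found the level thus rose in aged mice only, stayed within counting error in young mice and was lower in aged-GA mice. With 3 to 5 found it was 1911, 2552 and 2102 CPM, from 17, 12 and 13 cells. With 6 or more it was 5867, 5962 and 4066 CPM, from 5, 21 and 17 cells. The young and aged libraries thus differed in the level of cells with no G2/M gene and overlapped in the cells with 6 or more. Hmgn2 went from 160, 72.2 and 72.2 CPM with none to 882, 686 and 570 with 6 or more, and Hmgb1 from 545, 499 and 468 to 1587, 1759 and 1432. Hmgn1 was at 164, 101 and 112 CPM with none and at 160, 165 and 251 with 6 or more. T cells with S-phase genes only, at least 3 of them with under 3 G2/M genes, held 1128, 855 and 668 CPM of Hmgb2, under the level of the cycling cells. The groups of 3 or more G2/M genes hold few cells, and without them the levels with 0 to 2 genes found showed no steady rise in young and aged-GA mice.

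**Figure D4:**
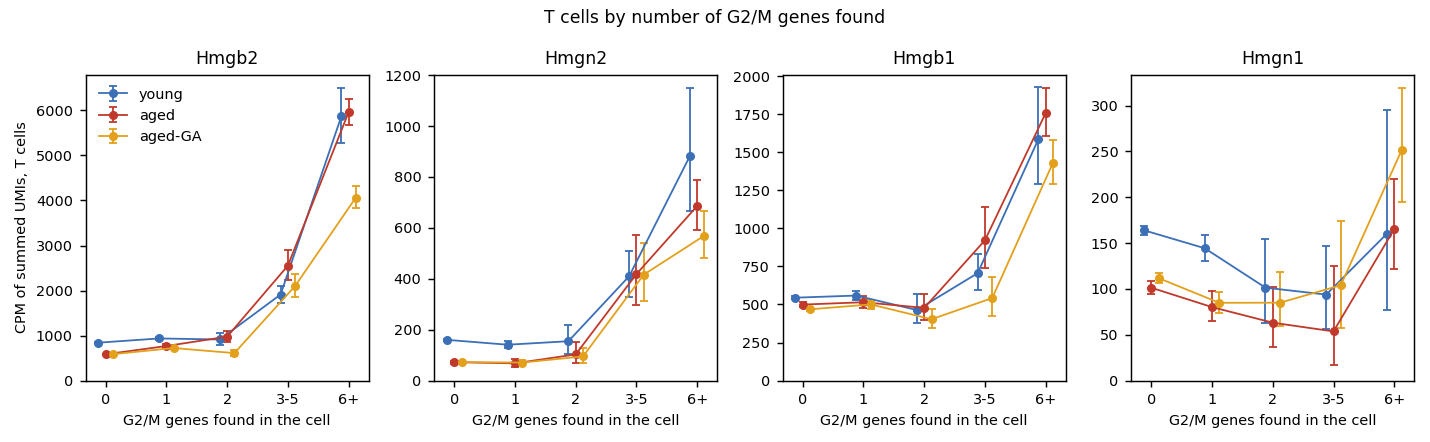
Level of Hmgb2, Hmgn2, Hmgb1 and Hmgn1 (CPM of summed UMIs, each panel with its own axis) in T cells grouped by the number of G2/M genes found in the cell, for the young, aged and aged-GA libraries (colours), with 95% Poisson intervals for counting error. Hmgb2 reaches 5867, 5962 and 4066 CPM with 6 or more genes found, from 5, 21 and 17 cells. Hmgn1 lies between 53.6 and 251 CPM. With 6 or more genes found it is above its level with none in aged and aged-GA mice, but not in young mice.

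In other lineages the same contrast rested on fewer than 20 cycling cells, and values are given without a ratio. The 7 cycling NK cells of aged mice held 5064 CPM of Hmgb2 (4609 to 5551), against 807 in NK cells with no cycle gene. The 11 cycling monocytes of aged mice held 1378 (1169 to 1612), against 628. Among plasma cells, the antibody secreting cells, 7 cycling cells of aged mice held 1447 CPM (1265 to 1648) and 32 cells with some but fewer cycle genes held 201. In aged-GA mice 9 cycling plasma cells held 730 CPM (626 to 846) and 22 cells with fewer cycle genes held 161. The 8 cycling B cells of aged-GA mice held 807 CPM, against 455 in B cells with no cycle gene.

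Neutrophils had Hmgb2 at or above the level of memory CD4 T cells and NK cells of the same library, and above that of memory CD8 T cells, with almost no cycling cells among them. Only 1 of 713 neutrophils of aged and 0 of 407 of aged-GA mice passed the cycling gate, the latter allowing up to 0.737% by a count of 3. Neutrophils had 2227 and 2362 UMIs at the median, against 4590 and 5792 in T cells of the same libraries. The gate asks for 3 genes to be found, so it can miss more cycling cells among shallow ones. Neutrophils with no cycle gene held 1414 CPM (1360 to 1468) in aged mice and 1445 (1376 to 1517) in aged-GA mice. Over classical monocytes, mature neutrophils were at 1.19 (1.11 to 1.27) in aged mice and 1.29 (1.14 to 1.44) in aged-GA mice for Hmgb2, and at 2.94 (2.71 to 3.17) and 2.99 (2.40 to 3.62) for Hmgn2. Of all genes, 20.1% and 33% were past 1.5-fold higher in this contrast. Hmgb1 went the other way, at -0.37 and -0.28. Immature over mature neutrophils gave 0.95 (0.75 to 1.15) and 1.09 (0.80 to 1.38) for Hmgn2, where 7.19% and 8.56% of all genes were past 1.5-fold higher. Hmgb2 stood at -0.22 and -0.01 in the same contrast, and Hmgb1 at -1.27 (-1.70 to -0.86) and -1.44 (-1.94 to -0.96), where 56% and 58.3% of all genes were past 1.5-fold lower.

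The UMIs of Hmgb2 found for each UMI of Hmgb1 in the same cells describe this split without the total of the cell. They compare classes with each other, since the 2 genes may be counted with unequal efficiency. The ratio was 6.45 (5.73 to 7.28) in mature neutrophils of aged and 5.03 (4.37 to 5.81) of aged-GA mice, and 13.3 (10.1 to 17.7) and 13.5 (9.89 to 18.8) in immature neutrophils. Classical monocytes had 2.18 and 1.69. In follicular B cells it was 1.18 (1.13 to 1.24) in young, 0.715 (0.682 to 0.750) in aged mice and 0.826 (0.799 to 0.854) in aged-GA mice. Naive CD8 T cells had 1.51, 0.953 and 1.02, whereas memory CD8 T cells had 1.76, 1.84 and 1.46 and NK cells 1.80, 1.64 and 1.65. Over all cells of each class, the lower ratio in aged naive and B cells was thus not shared by aged memory CD8 T cells. Of memory CD8 T cells, 6 of 231 in young, 12 of 472 in aged and 13 of 888 in aged-GA mice were cycling. Of NK cells, 0 of 317, 7 of 252 and 1 of 253 were cycling. As given above, the cycling NK cells of aged mice held a large part of the Hmgb2 UMIs of their class. The ratios of both classes without cycling cells are not given.

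The share of cells with at least 1 UMI of Hmgb2 was compared after each cell was thinned to 1000 UMIs. Of follicular B cells, 56.8% (53.7 to 59.8) in young, 32.4% (30.4 to 34.5) in aged mice and 36.3% (34.6 to 38.1) in aged-GA mice held the gene, and 91.1%, 70.7% and 79.5% before thinning. Of naive CD8 T cells it was 50.6%, 31.8% and 33.7%, and of NK cells 78.0%, 58.1% and 60.5%. Mature neutrophils had 73.8% in aged mice and 70.5% in aged-GA mice. Erythroid cells, a class gated by haemoglobin alone, had 6.58%, 14.3% and 7.48%. Their medians were 12182, 8115 and 8028 UMIs, against 3453, 3101 and 3796 in follicular B cells. Cells with fewer UMIs were left out, at most 2 follicular B cells, 6 NK cells and 22 mature neutrophils of a library.

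Erythroid cells were the exception in the comparisons between libraries, with all 4 tested genes at a higher CPM in aged than in young mice. Hmgb1 was at 1.31, Hmgb2 at 1.08, Hmgn1 at 1.00 and Hmgn2 at 0.86, while 87.5% of all genes in this class were past 1.5-fold higher and their median was 1.65. Haemoglobin made up 84.9%, 71.4% and 81.0% of UMIs of the class in young, aged and aged-GA mice, and the median number of genes found was 247, 1142 and 255. The class was gated by haemoglobin alone, and it also held markers of leukocytes. Its B cell markers summed to 178, 923 and 532 CPM and its neutrophil markers to 0.689, 508 and 104. Monocyte markers summed to 3.27, 88.2 and 20.1 CPM, and T cell markers to 154, 178 and 163. The part of leukocyte RNA in the levels of this class was not tested. Relative to the median of all genes the 4 ratios were -0.34, -0.57, -0.65 and -0.79. In erythroid cells with at least 500 genes, Hmgb2 was at -0.09, Hmgn1 at -0.19 and Hmgn2 at -0.25. No direction is therefore given for these genes in erythroid cells.

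The genes most like each member over classes were sought among 9535 genes, by the correlation of log2(CPM + 10) over the 10 classes with at least 20 cells in every library, averaged over libraries. Closest to Hmgb2 were Yipf3, Cnn2 and Irf2bpl (each r = 0.99). Erythroid cells, low in most members, add to every such correlation, so the other values are given for the 9 classes without them, a choice made after the data were seen. They describe few points that share libraries and depth. In these 9 classes, closest to Hmgb2 were Yipf3 (r = 0.98), Gna15 (0.97) and Acot7 (0.97), and closest to Hmgb1 were Crkl, Amdhd2 and Pacs1. Closest to Hmgn2 were Gm49336, Urod and Spata2l, and closest to Hmgn1 were Gnl3, Tcp11l2 and Zfp507. Closest to Hmgb3 were Mcm3ap, Ankrd28 and Srek1, and closest to Hmga1 were Akap10, Arhgap27 and Ddhd1. Between members, Hmgb2 had r = 0.80 with Hmgb1, 0.63 with Hmgn2 and -0.33 with Hmgn1. With erythroid cells these were 0.92, 0.88 and 0.07.

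Other genes of chromatin were followed in cycling T cells. Of 25 listed symbols of histone variants and histone chaperones, 18 were in the matrices. Of the 17, 16 and 16 tested, 10, 11 and 8 were past 1.5-fold higher in cycling than in non-cycling T cells of young, aged and aged-GA mice and 0 were lower, with medians of 0.91, 1.21 and 1.00 beside 0.20, 0.03 and 0.01 for all genes. Of all genes in these contrasts, 30.3%, 22% and 20.5% were past 1.5-fold higher and 17%, 21.4% and 19.8% lower. H2afz, which encodes the variant histone H2A.Z, was at 2.51, 2.63 and 2.32, and Hist1h1e, a linker histone gene, at 2.5, 2.97 and 2.46. Anp32e, the chaperone that takes H2A.Z off chromatin, was at 0.99, 2.32 and 1.59. Ptma, the gene of prothymosin alpha, which binds linker histone, was at 0.67, 1.43 and 1.43. In aged over young follicular B cells this list had 3 of 16 genes past 1.5-fold lower, H2afx (-0.88), Hist1h1c (-0.80) and H3f3b (-0.76), and 0 higher, where 3.02% of all genes were lower and 22.4% higher. H2afz was at -0.01 and Ptma at -0.53 there. Outside erythroid cells the other classes differed. Memory CD8 T cells, NK cells and nonclassical monocytes each had 2 genes of the list higher and 0 lower. Naive and memory CD4 T cells had 0 of either. Naive CD8 T cells had 1 higher and 2 lower, Fcrl5+ B cells 1 and 3, and regulatory T cells 0 and 3. Over all classes but erythroid cells, 16.5% of all genes were higher and 4.84% lower.

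Of 23 other genes with an HMG box or of the same families, 4 of 17, 4 of 15 and 4 of 17 tested were past 1.5-fold higher in cycling T cells and 5, 6 and 5 were lower. The share higher was near that of all genes (30.3%, 22% and 20.5%), and 17%, 21.4% and 19.8% of all genes were lower. Hmgn5, another nucleosome binding gene, was at 1.38, 1.86 and 2.0, and Ssrp1, a subunit of the histone chaperone FACT, at 0.91, 1.44 and 1.24. Lef1, an HMG box factor of naive T cells that is itself a gene of the naive gate, was at -1.29, -1.53 and -1.31. In aged over young follicular B cells 4 of 16 genes of this list were past 1.5-fold higher, near the 22.4% of all genes, and 0 lower, against 3.02%, with a median of 0.24 beside 0.25 for all genes.

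Of 13 genes of receptors and partners of the HMGB1 protein, few had enough UMIs for a ratio. In mature neutrophils 5 were tested between aged-GA and aged mice, and Tlr2, a Toll-like receptor, was past 1.5-fold higher (0.62, 191 CPM in aged mice and 294 in aged-GA mice), as were 6.22% of all genes. Trem1, an amplifier of inflammation, stood at 809 and 1011 CPM there, and Cxcr4, the chemokine receptor through which HMGB1 acts with CXCL12, at 861 and 1139 CPM. In aged over young follicular B cells 4 were tested, and Cd24a (-0.70) and Sdc1 (-0.92) were past 1.5-fold lower, as were 3.02% of all genes. Sdc1 is itself a gene of the plasma cell gate, which takes cells out of the B cell classes. Ager, which encodes RAGE, had 26 UMIs in mature neutrophils of aged mice and 8 in those of aged-GA mice, under the limit for a ratio. Cxcl12 had 0 UMIs in mature neutrophils and in classical monocytes of both libraries.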

How the data were processed

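The authors deposited raw UMI counts per gene and cell barcode, 1 matrix for each library (10x Genomics 3ʹ v3 chemistry, Cell Ranger 5.0.0 per the file headers, mm10 per the labels). Kept barcodes had 200 or more genes, a gene number within 0.9 of the highest in their library and a mitochondrial share of UMIs up to 7.5%. Lineages needed 2 markers (plasma cells 3 of 5) and erythroid cells 50% haemoglobin UMIs, and cells with markers of more than 1 lineage were left out of the classes. Doublets were not removed otherwise, and leaving out the top 5% of Scrublet scores (scanpy 1.11.5) was an alternative. Cycling cells had at least 3 of 14 G2/M genes and non-cycling cells none of the 14 G2/M or 14 S-phase genes. UMIs were summed over a class and given as CPM with exact Poisson 95% intervals, and ratios with exact conditional binomial intervals. Where a limit is given for a count of 0, it is 3 counts, and other counts of 0 are printed without a limit and do not show absence. Intervals and limits cover counting error only. Groups were taken from the labels. With 1 library a group no test was run, and past 1.5-fold is a rule of size. The depth was 48249945 to 75832322 UMIs in kept cells.

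Named genes were the 6 members, genes of 3 fixed lists and of the gates, and for each member the 3 genes most like it. The members and lists were chosen with earlier results of these data known. Alternatives changed the filters, the gates, the total, the UMI minimum, the depth and the cycling gate. The stress list, the cells without cycle genes, the mitochondrial range and the counts without erythroid cells were added after the data were seen. Scripts ran in Python 3.11.15 with numpy 2.4.6, scipy 1.17.1, pandas 2.3.3 and matplotlib 3.10.9, and were tested on simulated data.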

Additional observations from a re-analysis of the deposited data

Results flagged for a closer look

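In aged over young mice, the CPM ratios of erythroid cells and of lymphocyte classes lay past 1.5-fold on opposite sides, and the difference was not tested. In erythroid cells 87.5% of all genes were past 1.5-fold higher on this scale, and relative to their median the ratios were -0.34 for Hmgb1, -0.57 for Hmgb2, -0.65 for Hmgn1 and -0.79 for Hmgn2, so that no direction is given for them. The log2 ratio of CPM in erythroid cells was 1.31 for Hmgb1, where regulatory T cells and Fcrl5+ B cells were lower. It was 1.08 for Hmgb2, where naive T cells, regulatory T cells and both classes of B cells were lower. It was 1.00 for Hmgn1, where Fcrl5+ B cells and NK cells were lower, and 0.86 for Hmgn2, where naive T cells, memory CD8 T cells and both classes of B cells were lower. In aged-GA over aged mice, Hmgb2 was at 0.71 in regulatory T cells and at -0.74 in erythroid cells (0.04 relative to the median of all genes), and this difference was not tested either.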

How the results depend on the processing

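No paired analysis was possible because each group has 1 library, and for the same reason no replicate could be left out. In aged over young mice, the 14 ratios past 1.5-fold lower in lymphocytes stayed past it under each alternative that gave them a value, except Hmgn2 in memory CD8 T cells with 3 markers. The count past 1.5-fold was 18 of 39, and 7 of 23 in cells with a mitochondrial share of 2 to 4%. Its split, 4 higher and 14 lower, was 0 and 16 without haemoglobin, immunoglobulin, mitochondrial and ribosomal protein genes, 0 and 23 relative to the median of all genes and 0 and 14 with at least 500 genes. In aged-GA over aged mice the count was 5. It was 2 with at least 500 genes, without the haemoglobin and other genes above, relative to the median, or without erythroid cells, 1 at a mitochondrial share of 2 to 4%, and 13 with a minimum of 20 UMIs. In aged-GA over young mice it was 13, and 20 with 20 UMIs. The count in cycling cells was 14 of 18, 4 of 4 with 5 G2/M genes and 5 of 21 for cells with S-phase genes only.

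Reversals were in erythroid cells, apart from 3 in T cells with S-phase genes only. In erythroid cells with at least 500 genes, aged over young was -0.0945 for Hmgb2, -0.193 for Hmgn1 and -0.255 for Hmgn2, and aged-GA over aged was 0.141 for Hmgb1 and 0.0622 for Hmgb2. Relative to the median, aged over young was -0.339 for Hmgb1, -0.568 for Hmgb2, -0.653 for Hmgn1 and -0.791 for Hmgn2, and aged-GA over aged was 0.0425 for Hmgb1 and 0.0380 for Hmgb2. Without the haemoglobin and other genes, Hmgn2 in aged over young was -0.113. At a mitochondrial share of 2 to 4%, Hmgb2 was -0.382 and 0.171. In T cells of aged-GA mice with S-phase genes only, Hmgb1 was -0.0110, Hmgb3 -0.811 and Hmgn1 -0.191. The cause was not tested. The automatic Scrublet threshold marked 0% of barcodes in aged-GA mice, so the highest scores were left out instead. Depth limits Hmgb3 and Hmga1, which had a ratio in few classes.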
